A study of Mus musculus with 10 samples.

Results

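The genes described here carry carbon into and around the tricarboxylic acid (TCA) cycle of the mitochondrion and move its intermediates, phosphate and adenine nucleotides through the inner mitochondrial membrane. They were taken from the deposited table by gene symbol, with no cut on their measured values, though the list was chosen with earlier results of these data known. In all, 39 genes were listed and all 39 were found among 51670 gene models. They cover pyruvate import and carboxylation, the pyruvate dehydrogenase complex with its kinases and a phosphatase, most steps of the cycle, linked NADP, malate, glutamate, aspartate and citrate enzymes, and 7 carriers named Slc25a. A level of 1 FPKM (fragments divided by gene length and by sequencing depth) in at least 5 of 10 libraries was needed for testing, and 38 of the 39 genes reached it. The exception was Me1, the cytosolic malic enzyme, which stayed under 1 FPKM in every library.

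All libraries came from hematopoietic stem cells of wild-type C57BL/6J mice, sorted from bone marrow by the gate CD48-CD150+LSK, where LSK stands for lineage-negative cells with Sca-1 and Kit on their surface. In the Tunicamycin group (5 libraries) the mice had received Tunicamycin at 2 mg/kg by intraperitoneal injection, and in the DMSO group (5 libraries) they had received DMSO, the solvent, by the same route. Tunicamycin inhibits the enzyme that begins N-glycan synthesis and so provokes stress of the endoplasmic reticulum, and the series concerns such stress in these cells. The labels state no age, no interval from injection to sorting, no cell number and no link of libraries to separate animals, so p-values measure the spread between these libraries, which may be technical.

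The mitochondrial pyruvate carrier brings pyruvate into the matrix, where pyruvate dehydrogenase turns it into acetyl-CoA or pyruvate carboxylase turns it into oxaloacetate. Citrate synthase joins acetyl-CoA with oxaloacetate, and the following dehydrogenases pass electrons to NADH for the respiratory chain, while carriers exchange malate, citrate, aspartate, phosphate and ADP or ATP with the cytosol. Quiescent hematopoietic stem cells are known for reliance on glycolysis, and pyruvate dehydrogenase kinases, which switch the complex off by phosphorylation, are known to support that state.

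The libraries were alike within a group, with correlations over tested genes of 0.954 to 0.984 among Tunicamycin libraries and 0.970 to 0.987 among DMSO libraries, against 0.886 to 0.944 between groups. Depth, estimated from the step size of low FPKM values, ran from about 18600000 to 60000000 reads, so that 1 read on a gene of 2 kb equalled 0.00833 to 0.0268 FPKM. Tunicamycin library 1 holds whole numbers only, and its depth could not be estimated. All 12 stem cell markers examined passed the filter on low values, and 8 of them were higher after Tunicamycin (summed level 548 to 801 FPKM in Tunicamycin libraries and 402 to 571 FPKM in DMSO libraries), but so was Cd48, whose protein the gate excludes (53.1 to 75.6 FPKM against 17.0 to 38.1 FPKM). Markers of other cell types also moved. Their counts are out of all listed markers, of which 9 endothelial, 8 stromal, 3 B cell and 1 T cell markers passed the filter. For the other cell types all listed markers passed it. All 12 macrophage markers were called higher (summed 1964 to 5731 FPKM in Tunicamycin libraries, 516 to 1242 FPKM in DMSO libraries), as were 9 of 10 endothelial (209 to 417 FPKM and 111 to 171 FPKM; Lyve1 was under 1 FPKM throughout), 7 of 10 stromal (228 to 624 FPKM and 26.9 to 189 FPKM), 7 of 8 megakaryocyte (1064 to 1710 FPKM and 353 to 821 FPKM), all 5 red cell (4938 to 11317 FPKM and 193 to 460.2 FPKM), 3 of 6 B cell (37.0 to 61.2 FPKM and 22.8 to 31.5 FPKM) and 1 of 5 T cell markers (14.5 to 21.7 FPKM and 3.29 to 6.43 FPKM). Of the 10 erythroid progenitor markers, 9 were called lower and 1, Slc4a1, higher (all 10 summed 313 to 1102 FPKM in Tunicamycin libraries and 2091 to 4518 FPKM in DMSO libraries), and of the 8 neutrophil markers none was called in limma, 1 being higher at an unadjusted p under 0.05 (642 to 1758 FPKM and 437 to 2232 FPKM). The share of FPKM in mitochondrially encoded mRNAs was 2.41% to 4.45% in Tunicamycin libraries and 5.11% to 8.08% in DMSO libraries. Xist was under 1 FPKM in DMSO libraries 3 and 5 and at 28.2 to 35.6 FPKM in the other 8 libraries, while Ddx3y was at 17.97 and 20.5 FPKM in those 2 and at 0 elsewhere, so counts are given below without them where they moved. Every Tunicamycin library had Xist, so this difference partly coincides with the groups. Pdha1, Pdk3, Idh3g and Slc25a5 lie on the X chromosome.

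After Tunicamycin, 18 of the 38 tested genes were lower and 4 were higher, and 16 were not called. The genes that fell include the pyruvate carrier subunit Mpc1, genes of the cycle (Cs, Idh3a, Idh3b, Dlst, Suclg1, Suclg2, Fh1, Mdh2) and the phosphate and ADP/ATP carriers Slc25a3 and Slc25a5. Idh3g, Ogdh and Sucla2, also of the cycle, were not called. The genes that rose were Pdk2, Pdp1, Idh1 and Glud1. The test was limma on log2(FPKM + 1), a scale that understates the change of low genes, with Benjamini-Hochberg adjustment over 14727 genes and a threshold of 0.05. Of all 14727 genes tested, 15.4% were called lower and 29.9% higher, so that 47.4% of these genes were lower against a background of 15.4%, and 10.5% were higher against 29.9%. The split over all genes turned with the scaling: with equal library medians 27.4% of all genes were lower and 20.04% higher, beside 27 and 3 of the 38 genes. With quantile normalization 25.6% were lower and 23.3% higher, beside 22 and 4, and with TPM scaling 11.5% and 37.2%, beside 11 and 5. Most of the genes are abundant, with 34 of the 39 averaging at least 10 FPKM, and of the 5915 tested genes at that level 25.0% were lower and 31.0% higher. The median log2 change was −0.23 over the 38 genes and 0.18 over all tested genes. In bulk RNA, fewer cells of a type and less RNA per cell cannot be told apart.

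The 5 Tunicamycin libraries lay wholly below the 5 DMSO libraries for 14 genes (36.8%), where 11.0% of all tested genes did so, and wholly above them for 3 genes (7.89%), where 19.2% of all tested genes did so. For Pcx, among the 14, this rests on the whole number 2 in Tunicamycin library 1, which is too coarse to settle it. The changes were moderate: Idh3a was the single gene whose mean after Tunicamycin was at most 0.5 times that after DMSO. The plot of changes by step orders all tested genes by their role.

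**Figure D1:**
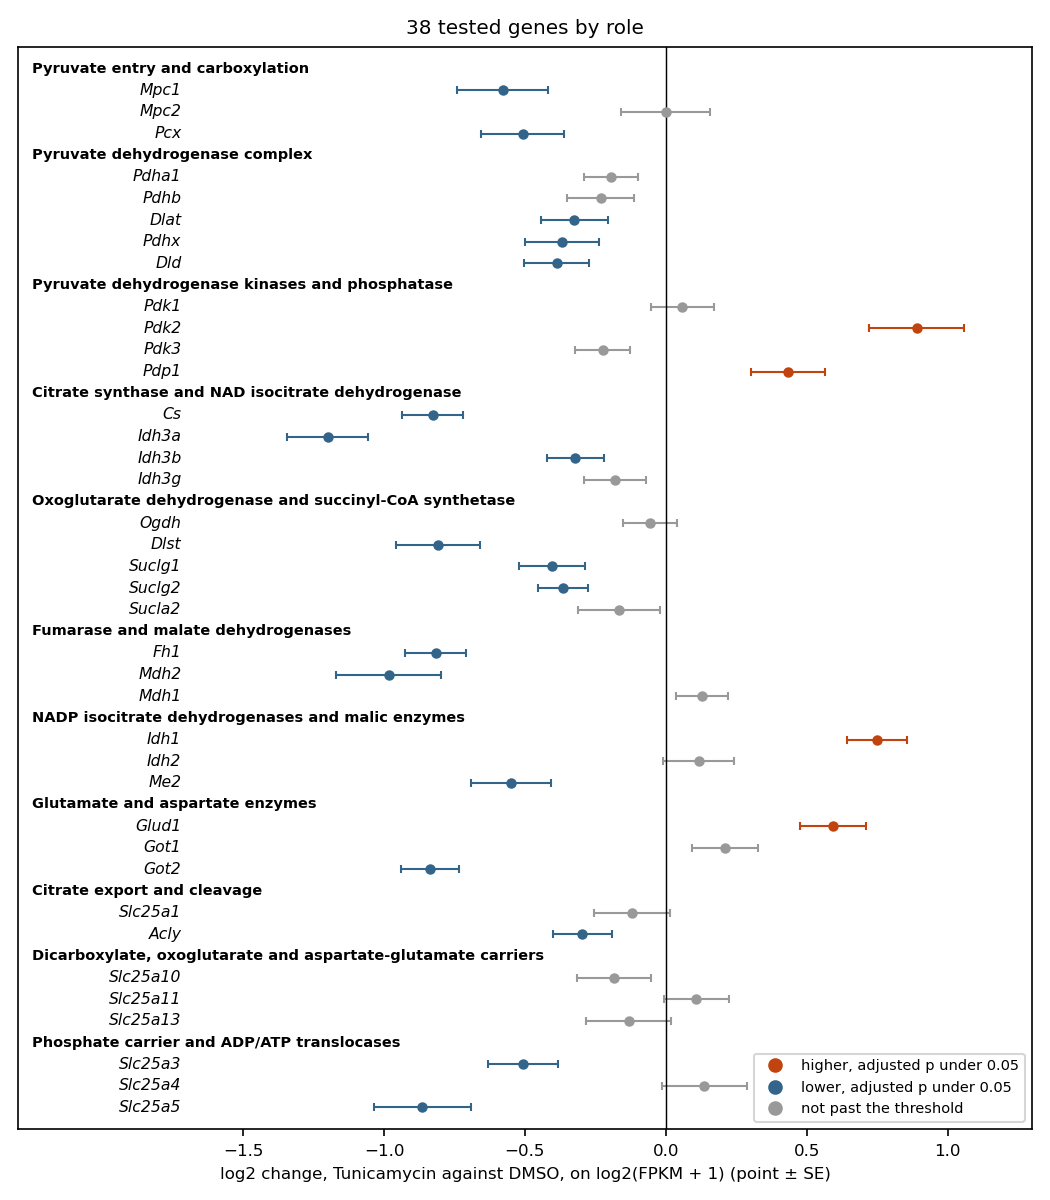
Change after Tunicamycin of the 38 tested genes, grouped by role, as log2 change of FPKM + 1 with its standard error (limma, 5 Tunicamycin and 5 DMSO libraries). Filled colours mark the 18 genes called lower and the 4 called higher at an adjusted p under 0.05, and Idh3a at −1.20 and Pdk2 at 0.89 lie at the ends.

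At the entry of pyruvate, Mpc1 and Mpc2 encode the subunits that together form the mitochondrial pyruvate carrier. Listed in the order of libraries 1 to 5, as are all values per library here, Mpc1 had 10, 13.8, 11.3, 10.3 and 18.9 FPKM after Tunicamycin and 21.5, 17.7, 17.6, 17.2 and 22.6 FPKM after DMSO. Its partner Mpc2 had 7, 10.9, 7.94, 7.93 and 14.0 FPKM after Tunicamycin, against 10.02, 8.82, 9.23, 9.24 and 9.08 FPKM after DMSO. Mpc1 overlapped between groups through Tunicamycin library 5, the highest treated library for both genes, and Mpc2 was spread around its DMSO values. Mpc1 fell (12.9 ± 3.70 FPKM after Tunicamycin, 19.3 ± 2.51 FPKM after DMSO, SD, n = 5 each here and below; log2 change −0.58 ± 0.16 SE, limma adjusted p = 0.0112), whereas the log2 change of Mpc2 was −0.00 ± 0.16 (adjusted p = 0.999). Within each library the log2 ratio of Mpc1 to Mpc2 averaged 0.40 ± 0.07 after Tunicamycin and 0.97 ± 0.16 after DMSO, with no overlap. An opposite-strand gene shares 23.1% of the exon bases of Mpc1, and the library kit does not mark strand, but that gene was under 1 FPKM on average in both groups (0.436 FPKM after Tunicamycin and 0.462 FPKM after DMSO).

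This ratio is 1 of 16 formed within libraries from paired enzymes, isoforms or subunits, which, apart from the added 1 FPKM, do not depend on how a library was scaled. Each was compared between groups by an exact two-sided permutation test over all assignments of the libraries to groups, whose smallest p is 0.00794, with adjustment over the 16. For 8 ratios, Mpc1 to Mpc2 among them, the groups did not overlap and the p was that smallest value (exact permutation, adjusted p = 0.0159), and 11 of the 16 ratios were called.

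Pcx encodes pyruvate carboxylase, which makes oxaloacetate from pyruvate and so refills the cycle. It was low in all libraries, at 1.72 to 2.09 FPKM after Tunicamycin and 2.32 to 3.93 FPKM after DMSO. As deposited, every treated library lay below every DMSO library (log2 change −0.51 ± 0.15, adjusted p = 0.0135), and on the linear scale the Tunicamycin mean was 59.8% of the DMSO mean. Tunicamycin library 1 holds the whole number 2, too coarse to place it below the lowest DMSO value of 2.32 FPKM. The ratio of Pcx to Pdha1, the other route of pyruvate, was not called (−0.31 ± 0.16, exact permutation adjusted p = 0.135), but was without DMSO library 1 (−0.43, adjusted p = 0.0282).

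The pyruvate dehydrogenase complex consists of the E1 heterotetramer of Pdha1 and Pdhb products, the E2 acetyltransferase (Dlat), the E3 dehydrogenase (Dld) and the E3-binding protein (Pdhx). Of these 5 genes 3 were called lower, with treated means at 75.5% to 79.6% of the DMSO means. Dlat averaged 14.1 ± 2.50 FPKM after Tunicamycin and 17.7 ± 0.762 FPKM after DMSO (log2 change −0.33 ± 0.12, adjusted p = 0.0407), and Pdhx 11.9 ± 1.86 FPKM and 15.7 ± 2.42 FPKM (−0.37 ± 0.13, adjusted p = 0.0369). Dld, whose product is shared with the oxoglutarate and branched-chain dehydrogenases, averaged 28.7 ± 2.66 FPKM after Tunicamycin and 38.03 ± 5.47 FPKM after DMSO (−0.39 ± 0.12, adjusted p = 0.0156). Dlat and Pdhx overlapped between groups and Dld did not. The E1 subunits were not called, with log2 changes of −0.19 ± 0.10 for Pdha1 and −0.23 ± 0.12 for Pdhb (adjusted p = 0.117 and 0.132), and their ratio to each other differed by 0.04 ± 0.05 between groups (exact permutation adjusted p = 0.484). All 3 calls of this complex were lost with TPM scaling, with no filter, without DMSO libraries 3 and 5 and without DMSO libraries 1 and 5. The call of Dlat was also lost without any of 8 single libraries (all but Tunicamycin 1 and 5) and that of Pdhx without any of 6 (Tunicamycin 2, 3 or 4, DMSO 1, 3 or 5), over all settings with an adjusted p of up to 0.225 for Dlat and 0.246 for Pdhx. Conversely, Pdhb was called lower without Tunicamycin library 5 (−0.31, limma adjusted p = 0.0275).

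The regulators of the complex moved differently. Pdk2, a kinase that inactivates the E1 subunit, had 22, 35.8, 32.9, 28.2 and 40.8 FPKM after Tunicamycin and 12.3, 20.0, 15.5, 18.6 and 16.7 FPKM after DMSO. All 5 treated libraries lay above all DMSO libraries. The means were 31.9 ± 7.20 FPKM after Tunicamycin and 16.6 ± 2.96 FPKM after DMSO, 1.92 times as high (log2 change 0.89 ± 0.17, adjusted p = 0.00105). The phosphatase Pdp1, which removes the phosphate and reactivates E1, had 5, 5.49, 6.12, 6.79 and 7.13 FPKM after Tunicamycin and 3.21, 4.05, 5.08, 4.73 and 4.29 FPKM after DMSO. Tunicamycin library 1, given in whole numbers, cannot be ordered against DMSO library 3, and the other treated libraries were above all DMSO libraries. Pdp1 was thus called higher as well (log2 change 0.43 ± 0.13, adjusted p = 0.0173), though not with equal medians, quantile normalization, no filter or without DMSO libraries 1 and 5, where the change was as low as 0.20 and the adjusted p as high as 0.142.

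Neither other kinase was called. Pdk1, a kinase known as a target of hypoxia-inducible factor, had 19, 28.7, 25.9, 25.1 and 26.0 FPKM after Tunicamycin and 23.4, 23.5, 22.8, 23.2 and 25.6 FPKM after DMSO (log2 change 0.06 ± 0.11, adjusted p = 0.703). Pdk3 had 36, 45.0, 41.0, 40.8 and 46.2 FPKM after Tunicamycin and 48.3, 48.2, 52.4, 44.8 and 50.6 FPKM after DMSO (−0.22 ± 0.10, adjusted p = 0.0789). Pdk1 values of the groups were interleaved, while those of Pdk3 overlapped at the edge, and Pdk3 was called lower without Tunicamycin library 5 (−0.26, limma adjusted p = 0.0399). In FPKM, Pdk2 made up 32.1% ± 2.93 of the summed Pdk1, Pdk2 and Pdk3 level after Tunicamycin and 18.6% ± 3.03 after DMSO. Relative to Pdp1, Pdk3 was lower by a log2 difference of −0.66 ± 0.11 without overlap (exact permutation adjusted p = 0.0159), Pdk1 was lower by −0.38 ± 0.13 (adjusted p = 0.0462) and Pdk2 was higher by 0.46 ± 0.15 (adjusted p = 0.0381). The Pdk1 and Pdk2 ratios overlapped between groups and their calls were lost at a pseudocount of 0.1 (exact permutation adjusted p = 0.0508 and 0.0693). They were also lost without any of 8 single libraries for Pdk1 (all but Tunicamycin 2 and DMSO 3) and 6 for Pdk2 (Tunicamycin 2 or 5, DMSO 1, 3, 4 or 5). Both calls were lost without DMSO libraries 3 and 5 (exact permutation adjusted p = 0.0857 for Pdk1 and 0.130 for Pdk2). The same held without DMSO libraries 1 and 5 (0.176 and 0.119) and without Tunicamycin libraries 1 and 5 (0.163 and 0.0519).

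The E-box letters CACGTG, searched on both strands in RefSeq promoter windows from 250 bases before to 50 bases after each start (GRCm38.p6), occurred in at least 1 window of 13.9% of the 36 of these genes that have one, 5 genes in all (Pcx, Pdk2, Ogdh, Slc25a1 and Slc25a13), and in 8.09% of all 27025 genes with a window. The Pdk2 stretch is shown since Pdk2 had the largest increase. It lies at chr11:95041482-95041507 on the minus strand, with the motif in capitals 126 to 121 bases before the start.
Pdk2 promoter stretch: cgaggagagcCACGTGtcgaagcgca

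The first steps of the cycle held the largest decrease. Idh3a encodes the catalytic alpha subunit of the NAD-dependent isocitrate dehydrogenase of the matrix (chr9:54586334-54604661 on the plus strand, GENCODE M21, GRCm38). It had 43, 34.6, 31.6, 30.3 and 41.8 FPKM after Tunicamycin and 101, 70.9, 83.3, 70.3 and 98.7 FPKM after DMSO. The highest treated library, at 43 FPKM, lay far below the lowest DMSO library, at 70.3 FPKM. The means were 36.3 ± 5.83 FPKM after Tunicamycin and 84.8 ± 14.6 FPKM after DMSO, so the treated mean was 42.7% of the DMSO mean (log2 change −1.20 ± 0.14, adjusted p = 4.44e-05).

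The other subunits of the same enzyme changed less. Idh3b, a structural subunit, had 83 to 106 FPKM after Tunicamycin and 108 to 127 FPKM after DMSO. The groups narrowly did not overlap (log2 change −0.32 ± 0.10, adjusted p = 0.0217). The call of Idh3b was lost without DMSO library 4 or 5 and without DMSO libraries 3 and 5 or 1 and 5. TPM scaling and no filter also lost it (limma adjusted p of up to 0.166 over all settings). Idh3g, the regulatory gamma subunit, had 163, 183, 171, 157 and 209 FPKM after Tunicamycin and 213, 189, 188, 194 and 213 FPKM after DMSO (−0.18 ± 0.11, adjusted p = 0.195). One treated library of Idh3g, Tunicamycin 5, lay inside the DMSO range. In FPKM, which is per length, Idh3a made up 11.8% ± 1.83 of the summed level of the 3 subunit genes after Tunicamycin and 20.9% ± 2.12 after DMSO. The log2 ratio of Idh3a to Idh3g averaged −2.26 ± 0.21 after Tunicamycin and −1.24 ± 0.18 after DMSO, a difference of −1.02 ± 0.12 (exact permutation adjusted p = 0.0159). For Idh3b to Idh3g the difference was −0.14 ± 0.07 (adjusted p = 0.107). It was called without Tunicamycin library 3 (−0.17, adjusted p = 0.0381), and without Tunicamycin library 5 it was −0.080.

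Cs, citrate synthase, had 70, 64.7, 60.4, 61.4 and 60.7 FPKM after Tunicamycin, against 125, 101, 108, 101 and 135 FPKM after DMSO. The treated libraries were tightly grouped and wholly below the DMSO libraries, of which 1 and 5 were the highest. The mean was 63.5 ± 4.03 FPKM after Tunicamycin and 114 ± 15.2 FPKM after DMSO (log2 change −0.83 ± 0.11, adjusted p = 9.13e-05).

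**Figure D2:**
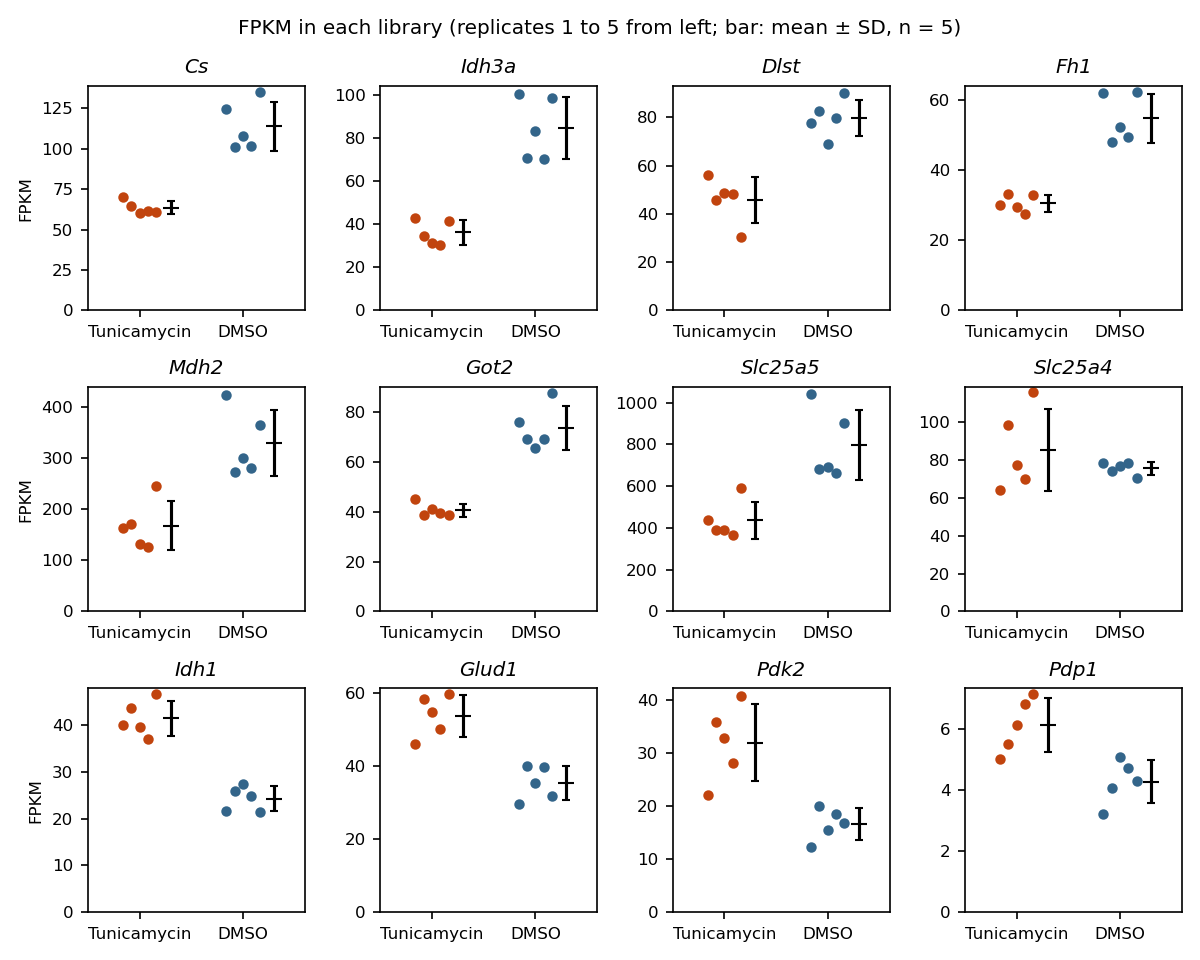
FPKM in each library of 12 genes (7 called lower, Slc25a4 and the 4 called higher), Tunicamycin left and DMSO right, with points for libraries 1 to 5 of a group and bars for the mean and SD. The groups do not overlap for genes such as Idh3a (30.3 to 43 FPKM after Tunicamycin, 70.3 to 101 FPKM after DMSO).

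At the oxoglutarate dehydrogenase complex, the E1 and E2 genes differed. Ogdh, which encodes E1, had 69, 73.4, 67.9, 67.9 and 82.3 FPKM after Tunicamycin and 69.0, 74.1, 74.2, 76.1 and 81.5 FPKM after DMSO. Dlst, which encodes the E2 succinyltransferase, had 56, 45.8, 48.8, 48.3 and 30.2 FPKM after Tunicamycin and 77.5, 82.6, 69.0, 79.5 and 89.9 FPKM after DMSO. Ogdh covered nearly the same range in both groups (log2 change −0.06 ± 0.10, adjusted p = 0.655), and Dlst was lower in every treated library, the lowest being Tunicamycin 5 (−0.81 ± 0.15, adjusted p = 0.000905). The log2 ratio of Ogdh to Dlst averaged 0.67 ± 0.44 after Tunicamycin and −0.08 ± 0.11 after DMSO, without overlap (exact permutation adjusted p = 0.0159). Without DMSO libraries 1 and 5 the difference was 0.71 and was not called (adjusted p = 0.0857).

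Succinyl-CoA synthetase joins the alpha subunit (Suclg1) with a GTP-forming (Suclg2) or an ATP-forming (Sucla2) beta subunit. Suclg1 averaged 49.1 ± 7.14 FPKM after Tunicamycin and 65.1 ± 6.59 FPKM after DMSO (log2 change −0.41 ± 0.12, adjusted p = 0.0137), and Suclg2 30.4 ± 2.00 FPKM and 39.4 ± 2.04 FPKM (−0.36 ± 0.09, adjusted p = 0.00529). The groups did not overlap for either gene. Sucla2 was not called, at 32.1 ± 6.97 FPKM after Tunicamycin and 35.8 ± 5.26 FPKM after DMSO (−0.17 ± 0.15, adjusted p = 0.374), but the ratio of Suclg2 to Sucla2 was not called different either (−0.20 ± 0.11, exact permutation adjusted p = 0.135). Without DMSO library 1 that ratio was called (−0.26, adjusted p = 0.0346), and without Tunicamycin library 5 the difference was −0.12.

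Fh1, fumarase, had 30, 33.2, 29.4, 27.4 and 32.9 FPKM after Tunicamycin and 62.1, 48.0, 52.3, 49.3 and 62.3 FPKM after DMSO. Each treated library was well below each DMSO library (log2 change −0.82 ± 0.11, adjusted p = 9.67e-05), and the treated mean was 55.8% of the DMSO mean.

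The malate dehydrogenases catalyse one reaction in different places, Mdh2 in the matrix and Mdh1 in the cytosol. Mdh2 had 163, 172, 132, 126 and 246 FPKM after Tunicamycin and 423, 272, 299.7, 280.4 and 365 FPKM after DMSO. Tunicamycin library 5 was the highest treated library and still lay below the lowest DMSO library. Mdh1 had 152, 150.4, 138, 131 and 151 FPKM after Tunicamycin and 132, 125, 139.7, 129 and 134 FPKM after DMSO, with overlap. The mean of Mdh2 was 168 ± 47.7 FPKM after Tunicamycin and 328 ± 64.4 FPKM after DMSO (log2 change −0.98 ± 0.19, adjusted p = 0.00112), and Mdh1 was not called (0.13 ± 0.09, adjusted p = 0.276). Mdh2 made up 53.0% ± 5.38 of the summed FPKM of both genes in the Tunicamycin libraries and 70.9% ± 3.59 in the DMSO libraries. The log2 ratio of Mdh1 to Mdh2 was higher by 1.11 ± 0.18, with no overlap (exact permutation adjusted p = 0.0159), which was the largest of the 16 differences.

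Mdh2 is one of a pair of these genes, with Ogdh, with a promoter window that holds the cAMP response element letters TGACGTCA on either strand, 5.56% of the 36 genes against 2.03% of 27025 genes. Its stretch is given because Mdh2 had the second largest decrease, at chr5:135778512-135778539 on the plus strand of GRCm38.p6, with the motif in capitals 127 to 120 bases before the RefSeq start.
Mdh2 promoter stretch: gagagaatcgTGACGTCAggcctcgctc
A match to letters is a description and shows no binding.

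Of the enzymes that make NADPH from isocitrate or malate, Idh1 was called higher, Idh2 was not called and Me1 was not tested, and the mitochondrial malic enzyme Me2, which uses mainly NAD, was called lower. Idh1, the cytosolic and peroxisomal NADP-dependent isocitrate dehydrogenase, had 40, 43.4, 39.6, 37.0 and 46.5 FPKM after Tunicamycin and 21.5, 25.9, 27.4, 24.9 and 21.3 FPKM after DMSO. Idh2, its mitochondrial counterpart, had 194, 198, 179, 181 and 223 FPKM after Tunicamycin and 166, 203, 187, 207 and 142 FPKM after DMSO. Idh1 was higher in every treated library than in any DMSO library (mean 41.3 ± 3.71 FPKM and 24.2 ± 2.70 FPKM, log2 change 0.75 ± 0.11, adjusted p = 0.000149), and Idh2 overlapped widely (0.12 ± 0.13, adjusted p = 0.474). Idh2 remained the far more abundant gene, and the log2 ratio of Idh1 to Idh2 was −2.21 ± 0.05 after Tunicamycin and −2.84 ± 0.14 after DMSO (exact permutation adjusted p = 0.0159).

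Me2, the mitochondrial malic enzyme, fell to 25.0 ± 4.14 FPKM after Tunicamycin, against 37.1 ± 6.25 FPKM after DMSO, without overlap (log2 change −0.55 ± 0.14, adjusted p = 0.00717). Me1 had 0, 0.557, 0.504, 0.608 and 0.669 FPKM after Tunicamycin and 0.179, 0.416, 0.733, 0.311 and 0.487 FPKM after DMSO. The 0 belongs to the library of whole numbers, in which such a level cannot be shown. Me1 itself was not tested in the limma fit. Its ratio to Me2 was 1 of the 16, with a log2 difference of 0.58 ± 0.26 (exact permutation adjusted p = 0.0741). Without the library of whole numbers the difference was 0.77 and was called (adjusted p = 0.0254). At a pseudocount of 0.1 with all libraries it was 0.48 and was not called (exact permutation adjusted p = 0.484). With Me1 under 1 FPKM, the added 1 FPKM makes up most of its term, so the ratio largely follows Me2.

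Glutamate and aspartate enzymes link the cycle to amino acids. Glud1, glutamate dehydrogenase, which makes 2-oxoglutarate in the matrix, had 46, 58.4, 54.7, 50.1 and 59.9 FPKM after Tunicamycin and 29.8, 39.9, 35.5, 39.8 and 31.9 FPKM after DMSO. All treated libraries lay above all DMSO libraries, and the treated mean was 1.52 times as high (log2 change 0.59 ± 0.12, adjusted p = 0.00134).

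Got2, the mitochondrial aspartate aminotransferase, had 45, 38.8, 40.9, 39.6 and 38.5 FPKM after Tunicamycin and 76.1, 69.2, 65.6, 68.9 and 87.5 FPKM after DMSO. Got1, the cytosolic form, had 20, 14.7, 18.5, 14.9 and 15.7 FPKM after Tunicamycin and 16.9, 12.9, 14.8, 12.9 and 14.1 FPKM after DMSO. Got2 was lower in every treated library (40.6 ± 2.65 FPKM against 73.5 ± 8.71 FPKM, log2 change −0.84 ± 0.10, adjusted p = 5.87e-05), while Got1 overlapped (0.21 ± 0.12, adjusted p = 0.164). Got2 held 70.8% ± 1.78 of the summed FPKM of both genes after Tunicamycin and 83.6% ± 1.90 after DMSO, and the log2 ratio of Got1 to Got2 was higher by 1.05 ± 0.10 without overlap (exact permutation adjusted p = 0.0159). An opposite-strand model shares 8.997% of the exon bases of Got2, but averaged 0.477 FPKM after Tunicamycin and 0.267 FPKM after DMSO. A pseudogene, Got2-ps1, may take a part of the reads of Got2.

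The letters TGATGNAA, the core of an element bound by ATF4 with C/EBP factors, were found on either strand in 1 of the 36 genes with a window (2.78%, against 4.51% of 27025 genes). That gene was Got1. The stretch around its match lies at chr19:43524690-43524717 on the minus strand of GRCm38.p6. It is shown because ATF4 is the best known transcription factor of the eIF2alpha stress pathway. The capitals mark the match, which reads TGATGNAA on the opposite strand, 102 to 95 bases before the start.
Got1 promoter stretch: attgcattggTTGCATCAtacaagcctc
No window held the ER stress element, CCAAT and CCACG with 9 bases between them (0.137% of all genes), the NRF1 site, GCGCA followed directly by TGCGC (1.07%), or the ERR site TCAAGGTCA (0.466%), and Dlst alone held the ETS site CCGGAAGT (2.78%, against 4.31%). Windows were given for 36 of the 39 genes, not for Idh3a, Me2 or Pdp1.

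**Figure D3:**
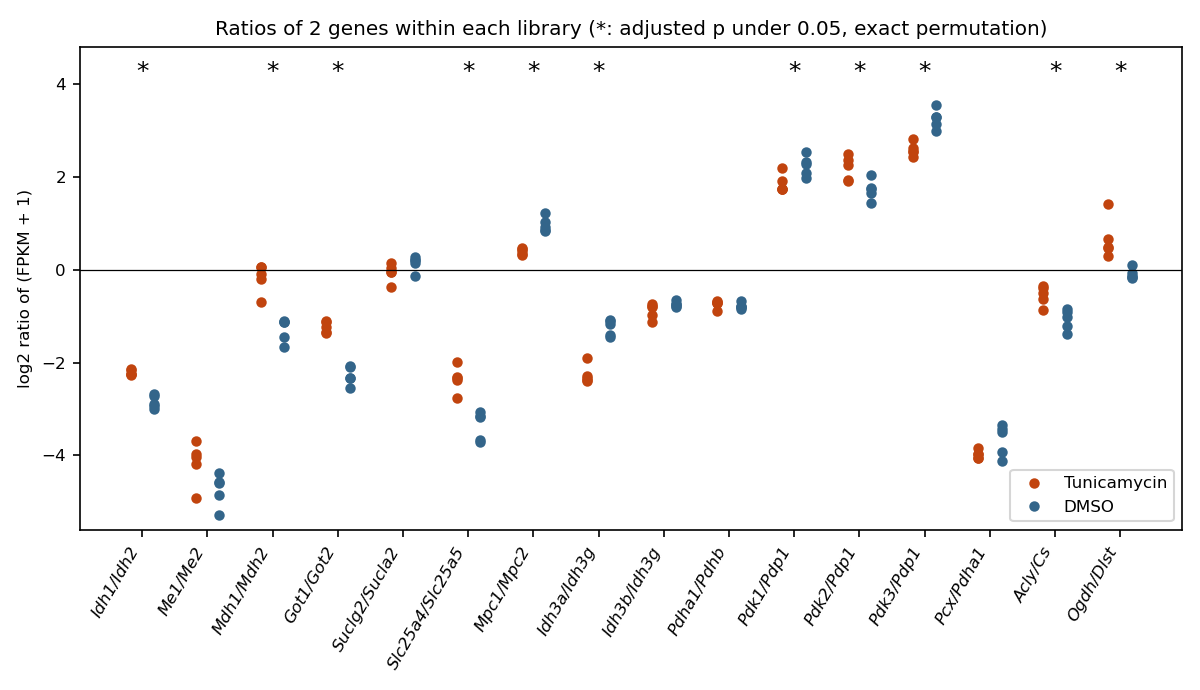
Within-library log2 ratios of (FPKM + 1) for the 16 pairs, with Tunicamycin left of DMSO and 1 point per library. The 8 pairs without overlap include Mdh1 to Mdh2, Got1 to Got2 and Slc25a4 to Slc25a5, each higher by at least 1 after Tunicamycin, and Idh3a to Idh3g, lower by −1.02.

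Citrate leaves the mitochondrion through Slc25a1 and is cut to acetyl-CoA in the cytosol by Acly. Slc25a1 was not called (52.7 ± 10.4 FPKM after Tunicamycin, 56.9 ± 6.23 FPKM after DMSO, adjusted p = 0.492). Acly had 38, 49.4, 42.6, 39.5 and 47.6 FPKM after Tunicamycin and 47.4, 52.9, 53.2, 56.0 and 57.5 FPKM after DMSO. It was called lower with a slight overlap (log2 change −0.30 ± 0.10, adjusted p = 0.0344), but the call was kept in only 9 of 20 alternative settings and was lost without any of 7 single libraries (Tunicamycin 1, 3 or 4, DMSO 2, 3, 4 or 5), with an adjusted p of up to 0.243 among all settings. The ratio of Acly to Cs, the enzymes that break and make citrate, was higher by a log2 difference of 0.53 ± 0.14 (exact permutation adjusted p = 0.0282), since Cs was lower by more. Its groups also overlapped, and the call was lost without DMSO libraries 3 and 5 and without DMSO libraries 1 and 5 (exact permutation adjusted p = 0.0857 in each case).

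The carriers of the malate-aspartate shuttle and of dicarboxylates were not called. Slc25a11, the oxoglutarate-malate carrier, averaged 106 ± 14.7 FPKM after Tunicamycin and 98.0 ± 7.60 FPKM after DMSO (log2 change 0.11 ± 0.11, adjusted p = 0.469). Slc25a13, an aspartate-glutamate carrier, averaged 6.63 ± 1.59 FPKM and 7.20 ± 0.569 FPKM (−0.13 ± 0.15, adjusted p = 0.504), and Slc25a10, the dicarboxylate carrier, 15.6 ± 2.75 FPKM and 17.7 ± 2.01 FPKM (−0.18 ± 0.13, adjusted p = 0.271). Slc25a11 shares 8.92% of its exon bases with Rnf167 on the opposite strand (88.8 FPKM after Tunicamycin, 62.8 FPKM after DMSO), so reads of the pair could not be separated there.

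The phosphate carrier and the main ADP/ATP carrier, which supply ATP synthase and export its product, were lower. Slc25a3, the phosphate carrier, had 135, 141, 152, 143 and 104 FPKM after Tunicamycin and 215, 180.3, 170.0, 184 and 209 FPKM after DMSO, with Tunicamycin 5 the lowest (log2 change −0.51 ± 0.12, adjusted p = 0.00525). The ADP/ATP translocase Slc25a5 had 439, 392, 391, 368 and 589 FPKM after Tunicamycin and 1040.1, 680.1, 693, 664 and 901 FPKM after DMSO. Its paralogue Slc25a4, typical of heart and muscle, had 64, 98.6, 77.7, 70.0 and 116 FPKM after Tunicamycin and 78.3, 74.2, 77.1, 78.3 and 70.5 FPKM after DMSO. Neither Slc25a3 nor Slc25a5 overlapped between groups, whereas treated Slc25a4 values lay on both sides of the DMSO values. Slc25a5 was the most abundant of the 39 genes in both groups. It averaged 436 ± 89.4 FPKM after Tunicamycin and 796 ± 167 FPKM after DMSO (log2 change −0.86 ± 0.17, adjusted p = 0.0015), and Slc25a4 was not called (0.14 ± 0.15, adjusted p = 0.485). Slc25a5 made up 83.6% ± 2.62 of the summed FPKM of both translocases after Tunicamycin and 91.1% ± 1.67 after DMSO. The log2 ratio of Slc25a4 to Slc25a5 was higher by 1.001 ± 0.18 without overlap (exact permutation adjusted p = 0.0159). Copies such as Slc25a5-ps may split reads of Slc25a5, so its level is uncertain.

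Among the libraries, the genes did not vary independently. Tunicamycin 5 was the highest treated library for 25 of the 38 tested genes and held 2.64% of its FPKM in rRNA models, against 7.99% to 14.7% in the other libraries, and Tunicamycin 1 and 4 were each the lowest for 15. In the DMSO group, the highest library of each of the 18 genes called lower was DMSO 1 (7 genes) or DMSO 5 (11 genes), and the lowest DMSO library of each of the 4 genes called higher was DMSO 1 (3 genes) or DMSO 5 (1 gene). DMSO 1 and 5 were also the DMSO libraries with the highest summed erythroid progenitor markers, 4518 and 4059 FPKM, against 2091 to 2564 FPKM in the other DMSO libraries. All Tunicamycin libraries were lower in these markers (313 to 1102 FPKM) and higher in macrophage markers (1964 to 5731 FPKM, against 516 to 1242 FPKM), and the part of other cell types in the changes was not tested.

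Without DMSO libraries 1 and 5, chosen for removal after the data were seen, 9 genes were called lower and 3 higher, and 4168 of all genes were called instead of 6664. Of all genes, 9.97% were lower and 19.1% higher in that fit. That comparison rests on 3 DMSO libraries. Without DMSO libraries 3 and 5, the count was 11 lower and 4 higher, beside 11.4% and 22.1% of all genes. Without Tunicamycin libraries 1 and 5, likewise chosen after the data were seen, it was 19 lower and 4 higher, beside 17.4% and 36.7% of all genes. Under all 20 alternative settings, 11 genes were called: Cs, Dlst, Fh1, Got2, Idh3a, Mdh2, Pcx and Slc25a5 as lower, and Glud1, Idh1 and Pdk2 as higher. Of the 20 settings, the call was kept in 19 for Me2, Slc25a3 and Suclg2, 18 for Mpc1, 17 for Suclg1, 16 for Dld and Pdp1, 14 for Idh3b, 10 for Pdhx, 9 for Acly and 7 for Dlat.

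**Figure D4:**
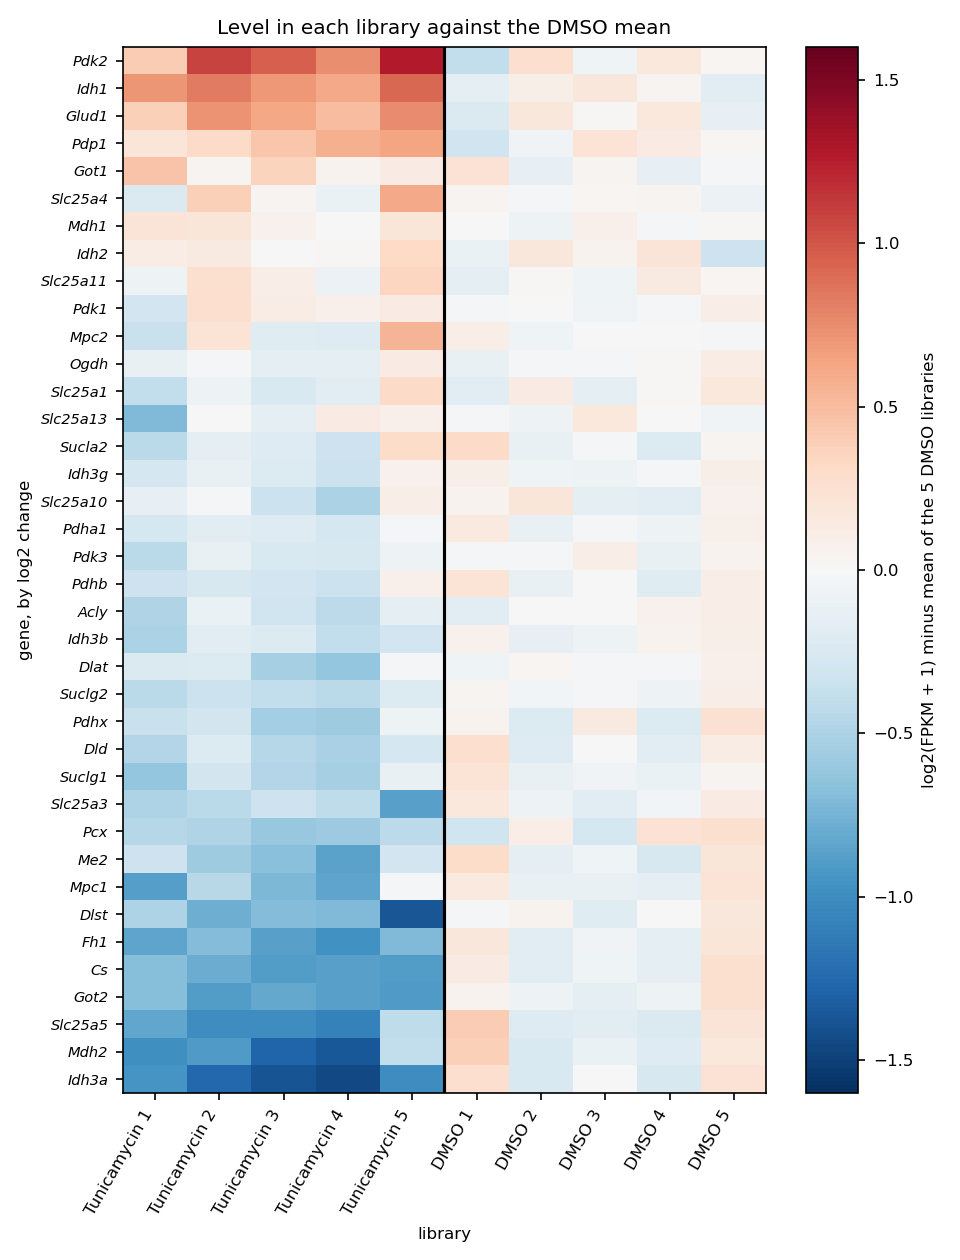
Level of each tested gene in each library relative to its mean over the 5 DMSO libraries, on the log2(FPKM + 1) scale, with Tunicamycin libraries left of DMSO libraries. DMSO 1 and DMSO 5 stand out with the highest levels of the 18 genes called lower.

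Other genes of the same pathways were counted in the same fit. Of 37 further TCA cycle, pyruvate and glutamate genes, 31 were tested, with 13 lower and 3 higher (41.9% and 9.68%, against 15.4% and 29.9% of all tested genes) and a median log2 change of −0.16. Those called higher were Glul, glutamine synthetase (91.8 ± 14.4 FPKM after Tunicamycin, 36.5 ± 5.28 FPKM after DMSO, log2 change 1.31), Pdk4, a further pyruvate dehydrogenase kinase (1.69 ± 0.537 FPKM and 0.225 ± 0.0702 FPKM, log2 change 1.11), and Gpt2, a mitochondrial alanine aminotransferase (log2 change 0.65). The largest decreases were those of Acss1 (−0.83), Sdhd (−0.78), Oxct1 (−0.77) and Ldha (−0.57), which encode mitochondrial acetyl-CoA synthetase, a succinate dehydrogenase anchor subunit, a ketone body enzyme and lactate dehydrogenase A. Without DMSO libraries 3 and 5 the count of lower genes was 8, and without DMSO libraries 1 and 5 it was 5. Of all genes, 11.4% and 9.97% were lower in those fits, in that order.

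Other carriers of the SLC25 family showed no such excess of lower genes. Of 37 tested among 44, 3 were lower and 11 higher (8.11% and 29.7%, near the background of 15.4% and 29.9%), with a median log2 change of 0.13. Those lower were Slc25a21, the oxodicarboxylate carrier (3.98 ± 1.80 FPKM after Tunicamycin, 17.9 ± 4.91 FPKM after DMSO, log2 change −1.95), Slc25a38, a glycine carrier needed for heme synthesis (−0.93), and Mtch2, an outer membrane relative of the family (−0.60). The largest increases were those of Ucp3 (0.96), Slc25a43 (0.85), Slc25a27 (0.79) and Slc25a20 (0.79), the carnitine-acylcarnitine carrier of fatty acid oxidation (21.3 ± 5.08 FPKM after Tunicamycin and 11.6 ± 0.799 FPKM after DMSO). The split depended on scaling: with equal library medians it was 9 lower and 7 higher. It was also 7 higher without Tunicamycin library 2, DMSO library 1 or DMSO library 5.

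The respiratory chain and mitochondrial translation, which the cycle feeds or depends on, were counted for setting. Of 84 nuclear oxidative phosphorylation genes tested, 59 were lower and 1 was higher, and the median log2 change was −0.57. The higher one was Cox6a2, a cytochrome c oxidase subunit typical of muscle, named after its values were seen (32.9 ± 13.1 FPKM after Tunicamycin, 1.85 ± 1.57 FPKM after DMSO). Among the 77 mitochondrial ribosomal protein genes tested, 44 were lower and none higher (median −0.40), and of the 13 mitochondrially encoded mRNAs 10 were lower and none higher (median −1.01), nor was any of either list higher in limma at an unadjusted p under 0.05. Of all genes tested, 15.4% were lower and 29.9% higher. The 26 glycolysis genes lay nearer to those shares, with 6 lower and 7 higher (23.1% and 26.9%, median 0.19). Without DMSO libraries 1 and 5 these counts of lower genes were 39, 16 and 6, for oxidative phosphorylation, ribosomal protein and mitochondrially encoded genes in that order, and 3 glycolysis genes were higher. In that fit 9.97% of all genes were lower and 19.1% higher. Without Tunicamycin library 2 alone 3 glycolysis genes were higher, and without DMSO library 1 alone 4.

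**Figure D5:**
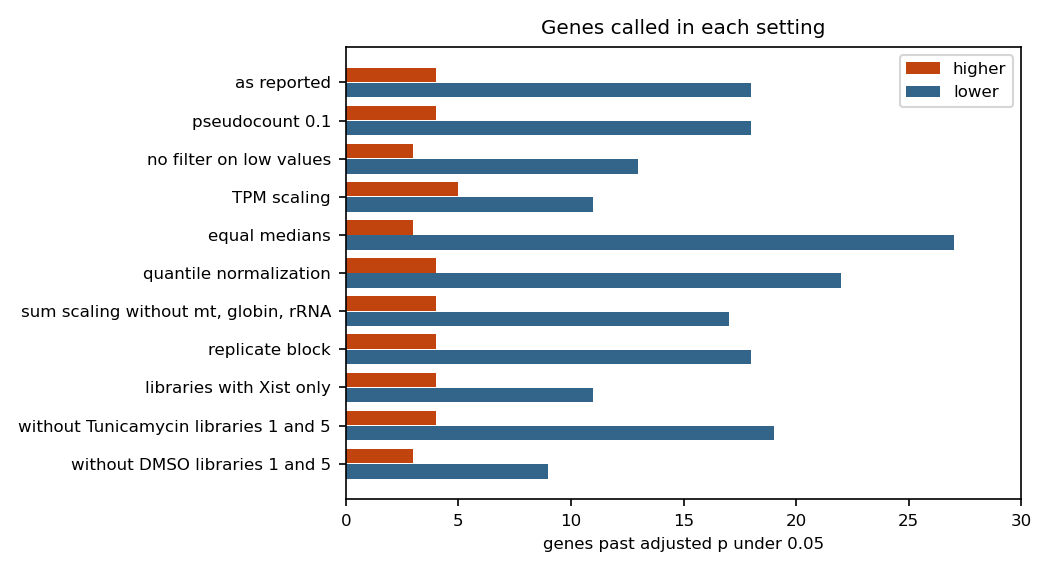
Number of the tested genes called lower and higher under each way of processing the values, with the main setting at 18 lower and 4 higher. The count of lower genes spans 9 (without DMSO libraries 1 and 5) to 27 (equal library medians), and that of higher genes 3 to 5.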

How the data were processed

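The authors deposited 1 table of FPKM values for 51670 gene models in 10 libraries, and 51389 models were matched to a symbol. In the column of Tunicamycin library 1 the deposited values are whole numbers, so that column counts as a score on an FPKM-like scale, coarse for low genes. Per the submitters' processing notes the build was mm10 and HTSeq, DESeq2, Cufflinks 2.1.1 and Bowtie 0.12.9 were used; what each tool did, and with which annotation, is not given in the sources used here. Per the labels' protocols, RNA was extracted with miRNeasy, amplified by Geo-seq for few cells and made into libraries with a Tn5 kit, which does not mark strand. The table holds no counts, so no count test was run. FPKM summed to 436970 to 477768 in Tunicamycin libraries and to 492963 to 499251 in DMSO libraries, without overlap. The main setting did not rescale these sums, so this difference between groups enters each log2 change there.

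Values were tested as log2(FPKM + 1) with limma 3.58.1 in R 4.3.3 (lmFit, eBayes with trend) for 5 Tunicamycin against 5 DMSO libraries, over the 14727 genes with at least 1 FPKM in at least 5 libraries. Every adjusted p of a single gene comes from this limma fit, with Benjamini-Hochberg adjustment, and log2 changes carry the standard error. The script was tested on simulated data. Depth was estimated from FPKM steps within 0.05 read, using GENCODE M21 lengths. Values per library were given for the 8 called genes with the largest change, those called higher and both genes of each called ratio, and beyond this rule for Slc25a3 and Me1, chosen after their values were seen. At most 6 called genes each way were named from the other carrier and other pathway lists. The genes and lists were chosen with earlier results of these data known. Alternatives changed the pseudocount, the filter, the scaling, the libraries and a block on replicate number. Tables and figures were made with Python 3.11.15, pandas 2.3.3 and matplotlib 3.10.9.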

Additional observations from a re-analysis of the deposited data

Results flagged for a closer look

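Of 78 groups of 5 libraries examined for a single value far from the rest of its group, 4 held one, and chance gives about 1 in 20. Pdhb stood at 93.9723 FPKM in Tunicamycin library 5, against 69.7 to 74.3 FPKM in the other treated libraries. Me1 was listed at 0 FPKM in Tunicamycin library 1, the library of whole numbers. Pdk1 stood at 25.6408 FPKM in DMSO library 5, and Slc25a13 at 8.1817 FPKM in DMSO library 3. None of these 4 genes was called changed with all libraries, Me1 being untested, but without Tunicamycin library 5 Pdhb was called lower (log2 change −0.31, limma adjusted p = 0.0275).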

How the results depend on the processing

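Leaving out 1 library at a time gave 14 to 20 genes called lower, 4 higher in each case, 5332 to 7979 of all genes and 9 to 11 of the 16 ratios. With values scaled to TPM, 11 genes were lower, as in the 8 libraries with Xist (without DMSO 3 and 5), and 9 were lower without DMSO libraries 1 and 5 (4168 of all genes, 7 ratios). TPM scaling moved the median of all genes to a log2 change of 0.31 and equal medians to −0.05, against 0.18. No called gene turned its direction. Changes of genes not called turned sign with TPM scaling (Mpc2 0.12, Ogdh 0.070, Slc25a1 0.0060), with equal medians (Got1 −0.018, Idh2 −0.11, Mdh1 −0.10, Pdk1 −0.17, Slc25a11 −0.12, Slc25a4 −0.091), with quantile normalization (Pdk1 −0.0547), with sums that leave out mitochondrial, globin and rRNA models (Mpc2 0.054, Ogdh 0.0039), without DMSO libraries 1 and 5 (Idh2 −0.032, Mpc2 0.025) and without single libraries (Mpc2 −0.14 to 0.090, Slc25a13 −0.20 to 0.013). The cause was not tested. A block on replicate number left 18 lower and 4 higher (6801 of all genes), but 0 of the 16 ratios could pass, as its 32 sign changes allow no p under 0.0625. Deviations of same-numbered libraries correlated at 0.02 to 0.25, all positive but not all over 0.1. Those of differently numbered libraries correlated at −0.25 to 0.21. The numbers were not taken as pairs, though these values leave pairing undecided. The equal-medians setting called 27 lower and 3 higher, where 27.4% and 20.04% of all genes were called so, and no filter 13 and 3, where 3.40% and 6.55% were. Mitochondrial ribosomal protein genes called lower were 27 with TPM scaling and 26 with Xist libraries only, against 44, and glycolysis genes called higher were 11 with TPM scaling and 3 with equal medians, against 7. With Xist libraries only, 6 mitochondrially encoded mRNAs were lower and 6 other carriers higher. Without Tunicamycin libraries 1 and 5, 5 other carriers were lower.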
